A study of Rattus norvegicus with 4 samples.

Results

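Retinoic acid is made from vitamin A inside tissues and acts through nuclear receptors, and 9 rat genes of its uptake, synthesis, binding, breakdown and signalling are described here in cultured neonatal ovaries: Aldh1a1, Aldh1a2, Rbp4, Crabp1, Crabp2, Rara, Rarb, Stra6 and Cyp26b1. They were chosen by name, as every probe set of the array whose annotated symbol is exactly 1 of these genes. This gave 14 probe sets, at least 1 for each of the 9 genes, of the 14217 genes that the array measures with a probe set of a single symbol. Stra6 had 5 probe sets, Cyp26b1 had 2 and the others had 1 each.

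Whole ovaries of 4-day-old rat pups were kept for 2 days in organ culture on floating filters. The GDNF group had glial cell line-derived neurotrophic factor, a ligand of the receptor tyrosine kinase Ret, added to the culture, and the control group had no factor added. Medium for both groups contained serum albumin, Albumax, insulin, ascorbic acid and transferrin, and no retinoid is named among its components in the labels. Each of the 4 samples, 2 GDNF and 2 control, was RNA pooled from 6 to 10 ovaries and hybridised to 1 Affymetrix array. No animal gave both ovaries to 1 group. The main comparison took the samples as unpaired, so any sharing of animals between the groups was not modelled. The labels give neither a strain nor the dose of GDNF. The titles and descriptions name the GDNF samples, whose protocol text repeats that of the controls.

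Retinol travels in blood bound to Rbp4 and enters some cells through the membrane receptor Stra6. Retinol dehydrogenases such as Rdh10 turn it into retinaldehyde, which Aldh1a1 and Aldh1a2 oxidise to retinoic acid. Crabp1 and Crabp2 bind retinoic acid in the cytoplasm, Rara and Rarb are nuclear receptors that bind it on DNA as partners of the RXR proteins, and Cyp26b1 breaks it down. In the fetal mouse ovary retinoic acid is known for its part in the entry of germ cells into meiosis.

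None of the 9 genes passed the test between GDNF and control ovaries. Of the 14 probe sets, 11 (all 9 genes) were bright enough to be tested, that is, at or above a signal of about 21.4 in their mean log2(signal + 1) over all 4 arrays. The lowest adjusted p of the 11 was 0.999 in limma's moderated test with Benjamini-Hochberg adjustment over all 18625 probe sets that were tested, and 0 of them passed at 0.05, a background of 0%. At an unadjusted limma p under 0.05 there were 508 of 18625 probe sets (2.73%) and 0 of the 11. Means in GDNF were higher for 5 of the 11 (48.5% of all probe sets tested) and lower for 6 (51.5% of all), with a median log2 fold change of -0.15, beside -0.01 over all probe sets tested. The median of the 11 depended on single samples and was 0.0018 without GDNF replicate 2, -0.04 without control replicate 2 and -0.24 without GDNF replicate 1. The groups did not overlap for 4 of the 11, 2 higher in GDNF (Aldh1a1 and Crabp2) and 2 lower (Aldh1a2 and Rbp4). Over all probe sets tested 30.0% did not overlap, 13.4% on the higher and 16.6% on the lower side, so the members' share is near the background. The difference between the groups exceeded the gap between replicates of both groups for Aldh1a1 and Crabp2, 2 of the 11, against 19.1% of all probe sets tested. Precision is limited by having 2 arrays in each group, and an exact permutation test could not give a two-sided p below 0.333.

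**Figure D1:**
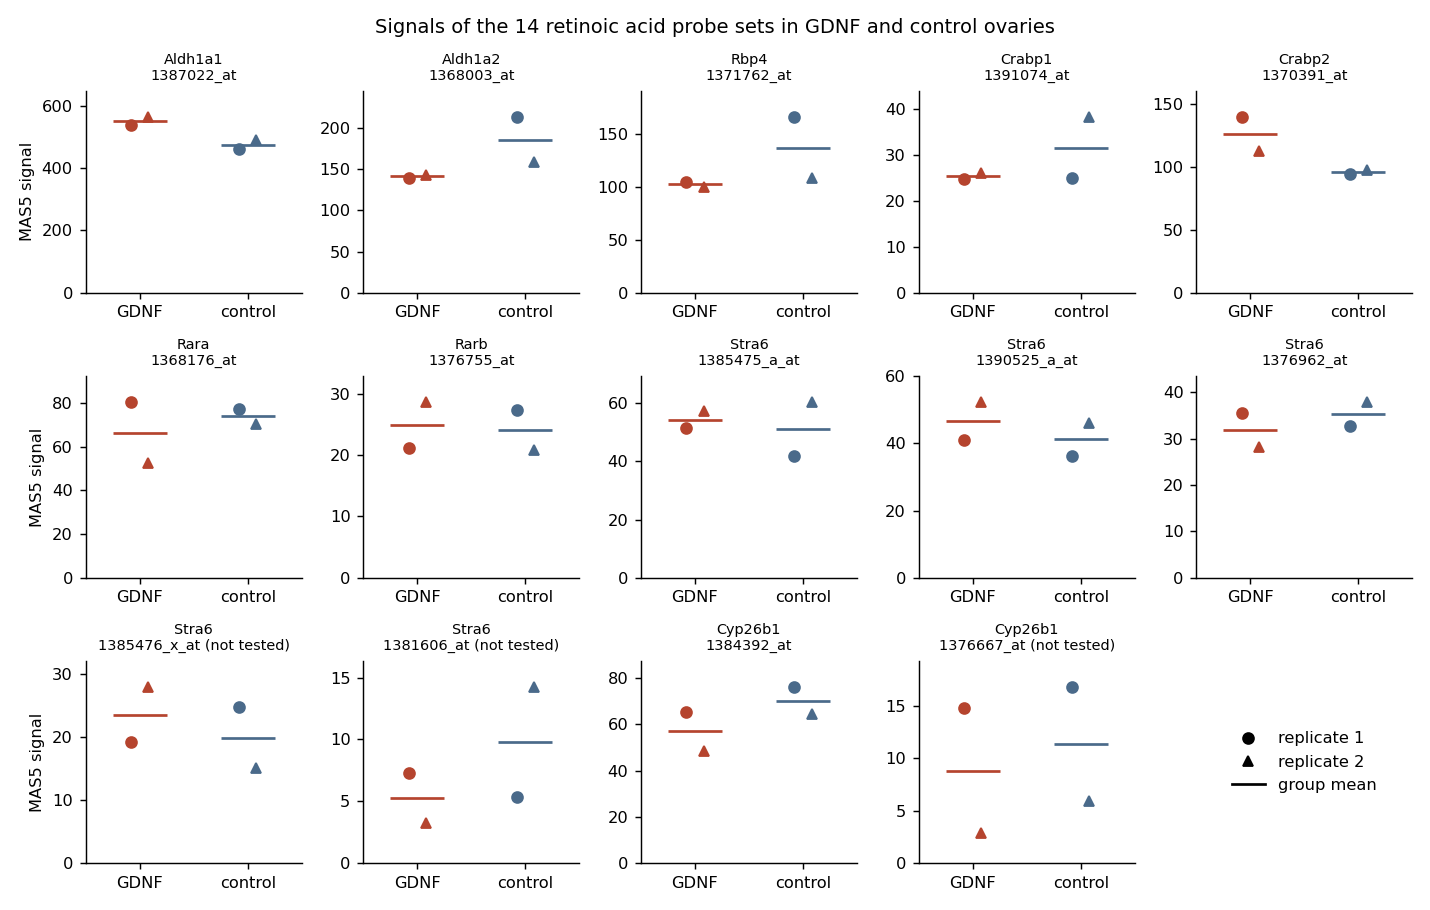
MAS5 signal (vertical axis, linear, starting at 0, with its own scale in each panel) of each of the 14 probe sets in the GDNF and control samples; circles are replicate 1, triangles replicate 2 and lines group means. The groups separate for Aldh1a1 and Crabp2, higher in GDNF, and for Aldh1a2 and Rbp4, lower in GDNF, where control replicate 1 is the high sample; the other probe sets overlap.

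Across the probe sets tested, log2 signals correlated at r = 0.971 between the GDNF samples, 0.984 between the control samples, and 0.976 to 0.986 between samples of different groups, with genes as the points, which are not independent replicates. For beta-actin, the signal of the 3' control probe set over that of the 5' one, a measure of RNA integrity, was 2.62 and 3.61 in GDNF samples and 3.76 and 3.34 in control samples. The same ratio for GAPDH was 1.11 and 1.44 in GDNF samples and 1.28 and 1.22 in control samples. Markers of the ovary were present, such as Gdf9 of oocytes (902.2 and 1000.5 in GDNF, 545.0 and 706.1 in control samples) and Foxl2 of granulosa cells (686.1 and 690.2 in GDNF, 591.0 and 624.3 in control samples). Of a list of 14 oocyte markers only 7 had a probe set, and all 7 were tested. The mean in GDNF was higher for all 7 (48.5% of all probe sets tested), 4 without overlap (13.4% of all). Their median log2 fold change was 0.56. Of a list of 11 granulosa markers 10 had a probe set and 9 were tested. The mean in GDNF was higher in 7 of the 9, 4 without overlap, with a median of 0.41. The other 2, Kitlg (488.0 and 418.6 in GDNF, 582.4 and 568.6 in control samples) and Amhr2 (736.3 and 823.3 in GDNF, 967.6 and 887.7 in control samples), were lower in GDNF without overlap (16.6% of all probe sets tested), so the granulosa list did not lie on 1 side. In both lists 0 passed the limma test. At an unadjusted p under 0.05 there were 3 oocyte markers, all higher, and 4 granulosa markers, of which Kitlg was lower, against 2.73% of all probe sets tested. The summed signal of the oocyte markers was 5329 and 6696 in GDNF against 4008 and 5015 in control samples, and that of the granulosa markers 4830 and 4307 in GDNF against 4469 and 3890 in control samples. The part of these cells in the higher means of Aldh1a1 and Crabp2 was not tested. Litter and culture day of the replicates are not given in the labels, so a p-value here reflects only how far these samples lie apart, which may be technical. Signals come from whole ovaries, in which fewer cells of a type and less RNA per cell cannot be told apart.

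Transport and uptake of retinol were read by Rbp4 and Stra6. Rbp4, the plasma carrier of retinol, had signals of 104.8 and 100.1 in GDNF replicates 1 and 2, against 166.0 and 108.5 in control replicates 1 and 2. Control replicate 1 stood well above the other 3 samples, which lay close together, and the groups did not overlap. The means were 102 ± 3.32 in GDNF and 137 ± 40.7 in control samples (SD, n = 2 each). The log2 fold change was -0.39 (SE 0.22, 95% interval -0.90 to 0.13, limma adjusted p = 0.999). Without control replicate 1 it was -0.08, and without control replicate 2 it was -0.69, so this value depends on which control sample is kept.

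Stra6, the membrane receptor of the Rbp4 and retinol complex, was measured by 5 probe sets that did not all point the same way. The brightest, 1385475_a_at, had 51.6 and 57.2 in GDNF against 41.7 and 60.3 in control samples (log2 fold change 0.11, SE 0.24). The next, 1390525_a_at, had 40.9 and 52.2 in GDNF against 36.1 and 46.2 in control samples (0.17, SE 0.25), while 1376962_at had 35.4 and 28.2 in GDNF against 32.6 and 37.8 in control samples (-0.15, SE 0.26). The groups overlapped in all 3. The first turned to -0.15 without control replicate 1, and the third to 0.012 without GDNF replicate 2. The second was 0.00040 without control replicate 1, 0.0018 without GDNF replicate 2, and 0.35 without either of the other samples. The remaining pair lay below the signal filter and was not tested. Probe set 1385476_x_at, whose suffix marks probes that may also match other transcripts, had 19.2 and 27.8 in GDNF against 24.7 and 15 in control samples. Probe set 1381606_at had 7.3 and 3.2 in GDNF against 5.3 and 14.2 in control samples. Both overlapped as well, so no Stra6 probe set separated the groups.

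The enzymes of the last step of synthesis lay on opposite sides. Aldh1a1, a retinaldehyde dehydrogenase, had signals of 536.5 and 562.5 in GDNF against 459.7 and 490.3 in control samples. Both GDNF samples were above both control samples, and the replicates of each group were closer to each other than the groups were. The means were 550 ± 18.4 in GDNF and 475.0 ± 21.6 in control samples, 1.16-fold apart (log2 fold change 0.21, SE 0.11, 95% interval -0.04 to 0.46, limma adjusted p = 0.999). With each sample left out in turn it ran from 0.16 to 0.26, the narrowest range of the 11 probe sets.

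Aldh1a2, the main retinaldehyde dehydrogenase of the mouse embryo and a gene of mesothelial cells, had signals of 140.0 and 143.2 in GDNF against 213.4 and 159.2 in control samples. The GDNF samples were nearly equal and below both control samples, of which replicate 1 was the higher by far. The means were 142 ± 2.26 in GDNF and 186 ± 38.3 in control samples (log2 fold change -0.38, SE 0.17, 95% interval -0.79 to 0.03, limma adjusted p = 0.999). The control samples differed by 0.42 on the log2 scale, more than the groups did. Without control replicate 1 the fold change was -0.17 and without control replicate 2 it was -0.59.

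The level of Aldh1a1 over the 4 arrays resembled that of many genes. The 3 genes nearest to it, by the root mean square distance of log2 signals centred on their mean over the 4 arrays, were Mapk6 (distance 0.0050), C1h11orf24 (0.010) and Syngr1 (0.012). Mapk6, an atypical MAP kinase, had 476.6 and 499.0 in GDNF against 411.5 and 436.0 in control samples. Of the 14246 other probe sets compared, 2026 lay within 0.1, so 4 arrays hardly set the nearest ones apart.

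Markers of the mesothelium were read beside Aldh1a2. Of a list of 15 surface epithelium and mesothelium markers 13 had a probe set, and all 13 were tested. The mean in GDNF was lower for 12 of them (51.5% of all probe sets tested), 8 without overlap (16.6% of all). Their median log2 fold change was -0.28, and 0 passed the limma test. At an unadjusted limma p under 0.05 there were 6, against 2.73% of all probe sets tested. Their summed signal was 8726 and 8277 in GDNF against 10835 and 9401 in control samples, and control replicate 1 was the highest, as for Aldh1a2. After the log2 signal of each gene was centred on its mean over all arrays, these markers averaged -0.06 and -0.21 in GDNF against 0.26 and 0.0072 in control samples, so that GDNF replicate 1 and control replicate 2 were close. Gpm6a, a membrane glycoprotein, had 351.3 and 408.8 in GDNF against 536.1 and 434.1 in control samples. Lrrn4, which also marks mesothelial cells, had 596.3 and 661.9 in GDNF against 900.8 and 726.9 in control samples. Not all markers followed that order. Krt7 was lower in GDNF without overlap but level in control samples (377.4 and 357.1 in GDNF, 480.7 and 482.6 in control samples). Cdh1 had a higher mean in GDNF, with overlap (265.0 and 199.0 in GDNF, 195.0 and 215.2 in control samples). Upk1b, Msln, Krt8 and Krt18 had lower means in GDNF with overlap. The part of the mesothelium markers in the Aldh1a2 difference was not tested.

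Rbp4 is also made by liver and fat, so their markers were read beside it. Of a list of 10 adipocyte markers, added after the values of Rbp4 were seen, 9 had a probe set and 5 were tested. The summed signal of the 9 was 403 and 359 in GDNF against 563 and 362 in control samples. Control replicate 1 was again the highest. The tested genes did not all follow that order. The mean in GDNF was lower for 4 of the 5 (51.5% of all probe sets tested) and higher for 1. The groups overlapped in all 5. The limma test passed 0, with 1 (Car3, log2 fold change -1.37) at an unadjusted p under 0.05 (2.73% of all). Car3 and Fabp4 were highest in control replicate 1. Lipe (54.2 and 20.4 in GDNF, 48.0 and 43.5 in control samples) and Cidea (50.3 and 39.6 in GDNF, 48.2 and 44.1 in control samples) were highest in GDNF replicate 1. Dgat2 was highest in GDNF replicate 2 (189.7 and 254.0 in GDNF, 202.5 and 180.8 in control samples). Car3, a carbonic anhydrase abundant in fat, had 49.2 and 21.5 in GDNF against 149.8 and 48.9 in control samples. Fabp4, a fatty acid binding protein of adipocytes, had 32.2 and 8.8 in GDNF against 83.3 and 22.2 in control samples. The defining markers Adipoq (12.9 and 3.8 in GDNF, 13.2 and 12.7 in control samples) and Plin1 (7.8 and 9.6 in GDNF, 12.2 and 7.6 in control samples) lay below the filter in all samples. The part of fat in the Rbp4 difference was not tested. Of 9 hepatocyte and blood markers 8 had a probe set and 3 were tested, the liver gene Ttr and the blood genes Hbb and Alas2. The mean in GDNF was higher for all 3 (48.5% of all probe sets tested), with overlap in each. The limma test passed 0, with 0 at an unadjusted p under 0.05. Ttr, with a log2 fold change of 0.67, was the only liver gene tested and was dim. Its signals were 35.6 and 24.9 in GDNF against 12.8 and 26.1 in control samples. The liver marker Alb lay below the filter, at 14.7 and 2.5 in GDNF against 1.7 and 13 in control samples. Apoa1, Apoa2, Fgb and Serpina1, also of liver, lay below the filter too. The part of liver in the Rbp4 difference was not tested.

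**Figure D2:**
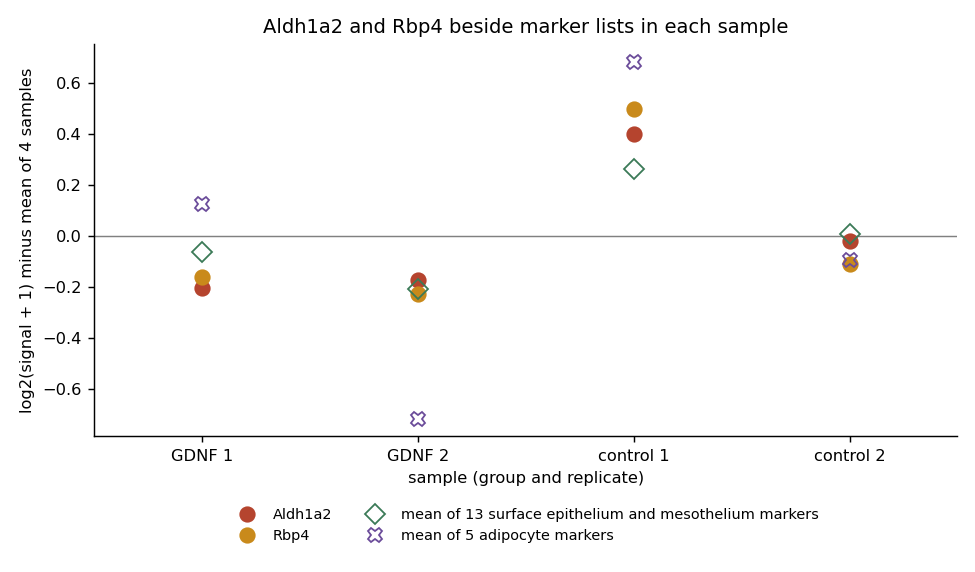
Levels in each sample relative to the mean of the 4 samples (vertical axis, log2(signal + 1) units) for Aldh1a2, Rbp4 and the mean over the tested genes of the surface epithelium and mesothelium list and of the adipocyte list. In control replicate 1 all 4 are at their highest, at 0.40 for Aldh1a2, 0.50 for Rbp4, 0.26 for the surface epithelium and mesothelium markers and 0.68 for the adipocyte markers, of which Car3 and Fabp4 but not Dgat2, Lipe and Cidea peak there. Among lists not drawn, leukocyte markers were also highest in control replicate 1, at 0.22, with 0.14 in GDNF replicate 1. Endothelial markers had 0.02 in both of these samples. Granulosa (0.27), theca and stroma (0.10), and hepatocyte and blood markers (0.24) were highest in GDNF replicate 1. Oocyte markers were highest in GDNF replicate 2 (0.26).

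The cytoplasmic binding proteins had mean differences of opposite sign, without overlap for Crabp2 but with overlap for Crabp1. Crabp2, which carries retinoic acid to its receptors, had signals of 139.6 and 112.9 in GDNF against 94.1 and 97.5 in control samples. Both GDNF samples were above both control samples, replicate 1 by more than replicate 2. The means were 126 ± 18.9 in GDNF and 95.8 ± 2.40 in control samples, 1.31-fold apart (log2 fold change 0.39, SE 0.17, 95% interval -0.01 to 0.79, limma adjusted p = 0.999). Its size depended on the GDNF sample kept, at 0.23 without GDNF replicate 1 and 0.54 without GDNF replicate 2.

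Crabp1, its close relative, was dim. It had 24.8 and 26.0 in GDNF against 24.9 and 38.2 in control samples, so that 3 samples were alike and control replicate 2 was higher. The log2 fold change was -0.27 (SE 0.30, 95% interval -0.98 to 0.44), and it was 0.027 without control replicate 2 and -0.57 without control replicate 1. Among the 11 probe sets, that of Rarb alone had a wider interval.

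Among the receptors, Rara had 80.2 and 52.4 in GDNF against 77.1 and 70.4 in control samples. GDNF replicate 2 was the low sample, and the groups overlapped. The log2 fold change was -0.18 (SE 0.24, 95% interval -0.75 to 0.38), and without GDNF replicate 2 it turned to 0.12.

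Rarb is both a receptor and a textbook target of retinoic acid. A direct repeat of the receptors' binding hexamer with a 5-base spacer, known as DR5, sits in the promoter region of its inducible transcript and makes it a common readout of the signal. RefSeq promoter windows of rat assembly GRCr8, 250 bases before to 50 bases after the annotated start, were found for all 9 genes and searched on both strands for a DR5 of the hexamer AGGTCA, the variant AGTTCA, the variant GGGTCA or the variant GGTTCA. Of all 33469 windows in the table, 128 (0.382%) held it. Of the 9 genes, Rarb alone did, 25 to 41 bases after its start. Of 59 other retinoid pathway genes with a window, Cyp26a1 alone did, 92 to 76 bases before its start, on the strand opposite to the gene. These stretches are shown because both genes are known targets of retinoic acid, with the hexamers in capitals. The hexamers searched include those of both stretches, and the DR5 of Rarb was known beforehand, so enrichment was not tested. The Rarb stretch is chr15:11336410-11336439 on the plus strand and the Cyp26a1 stretch is chr1:244883724-244883753, read on the minus strand.
Rarb: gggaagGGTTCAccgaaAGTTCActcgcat
Cyp26a1: acaaattAGTTCAcccaaAGTTCAtcttta
A match describes the letters of these windows and does not show that a receptor was bound there in these ovaries.

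The genes that carry these elements were dim. Rarb had signals of 21.1 and 28.6 in GDNF against 27.4 and 20.8 in control samples, close to the filter of 21.4. Each group held a higher and a lower sample and the groups overlapped fully. The means were 24.9 ± 5.30 in GDNF and 24.1 ± 4.67 in control samples (log2 fold change 0.04, SE 0.31, 95% interval -0.70 to 0.77). The direction turned without GDNF replicate 2 (-0.17) and without control replicate 2 (-0.15). Cyp26a1, which degrades retinoic acid as Cyp26b1 does, had 6.5 and 12.7 in GDNF against 0.8 and 5.2 in control samples. Both GDNF values lay above both control values. That held for 13.4% of all probe sets tested, a share that leaves out probe sets as dim as this one. All 4 values of Cyp26a1 lay below the filter, so it was not tested.

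Cyp26b1, the member that clears retinoic acid, had 65.5 and 48.4 in GDNF against 76.0 and 64.7 in control samples in its brighter probe set, 1384392_at. GDNF replicate 2 was the lowest sample and control replicate 1 the highest, and the groups overlapped by less than 1 unit of signal. The means were 56.95 ± 12.1 in GDNF and 70.4 ± 7.99 in control samples (log2 fold change -0.31, SE 0.22, 95% interval -0.84 to 0.21, limma adjusted p = 0.999). It stayed below 0 with each sample left out in turn, from -0.53 without GDNF replicate 1 to -0.10 without GDNF replicate 2. Its other probe set, 1376667_at, was below the filter, at 14.8 and 2.9 in GDNF against 16.8 and 5.9 in control samples. In both probe sets the replicate 1 sample was higher than the replicate 2 sample in each group.

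**Figure D3:**
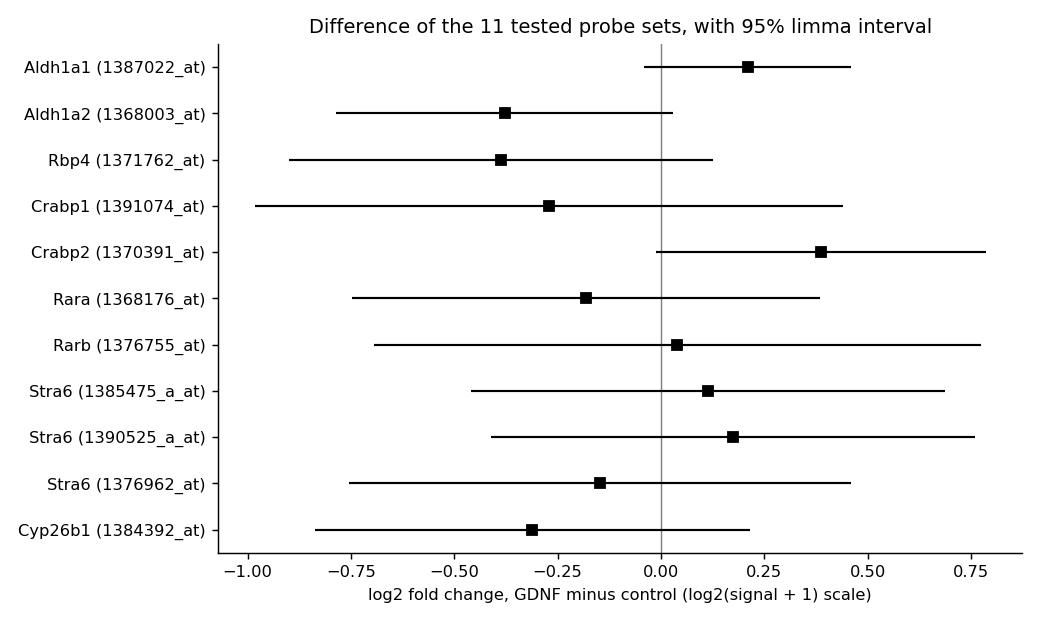
Log2 fold change, GDNF minus control (horizontal axis, log2(signal + 1) scale), of the 11 tested probe sets; squares are limma estimates and lines their 95% intervals. All 11 intervals contain 0, and the half-width runs from 0.25 for Aldh1a1 to 0.74 for Rarb.

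**Figure D4:**
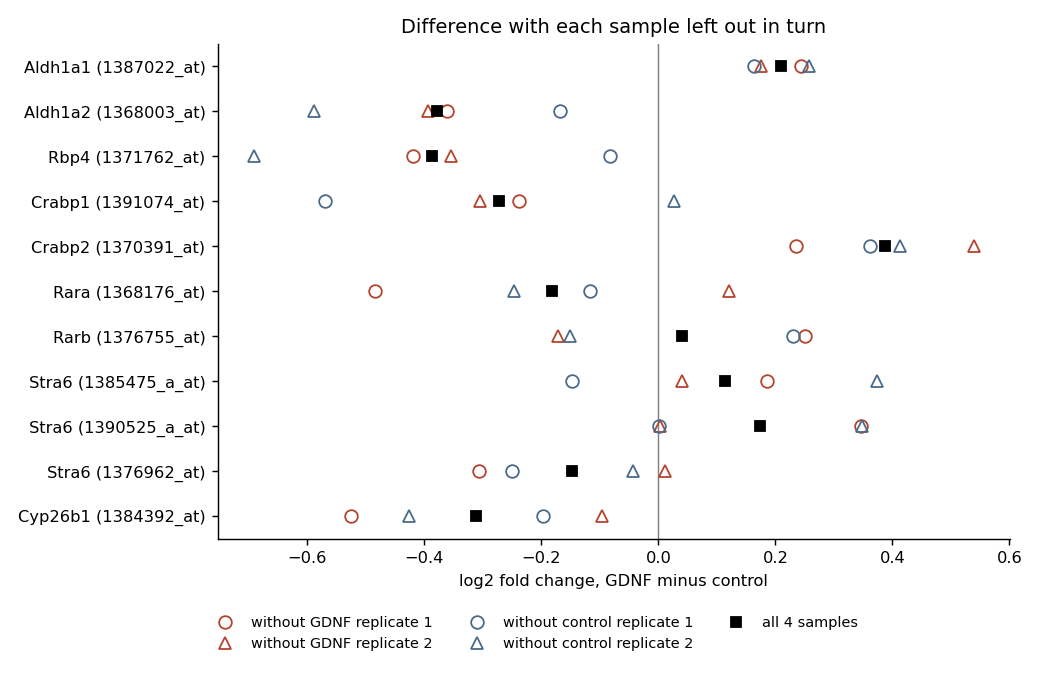
Log2 fold change, GDNF minus control (horizontal axis), of the 11 tested probe sets with all 4 samples (squares) and with each sample left out in turn (open symbols, by sample). Crabp1, Rara, Rarb and 2 Stra6 probe sets change sign; Aldh1a1, Crabp2, Aldh1a2 and Rbp4 cannot, since their groups do not overlap, and their spread shows only how the size varies.

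The rest of the pathway was read from lists of 90 other genes, of which 71 had a probe set of their own symbol and 47 were tested. Means in GDNF were above control for 22 of the 47 (48.5% of all probe sets tested) and below it for 25 (51.5% of all). The median log2 fold change was -0.01, equal at that precision to the median over all probe sets tested. The limma test passed 0 of the 47. At an unadjusted p under 0.05 there were 2 of 47, Sdr16c5 and Hoxb2, against 2.73% of all probe sets tested. The groups did not overlap for 2 genes on the higher side, against 13.4% of all probe sets tested, and for 11 on the lower side, against 16.6%.

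Among 8 tested genes of retinoid transport and storage, 4 lay higher and 4 lower in GDNF. The highest was Ttr, the plasma partner of Rbp4, at 35.6 and 24.9 in GDNF against 12.8 and 26.1 in control samples (log2 fold change 0.67, SE 0.40). Next was Bco1, which cleaves beta-carotene to retinaldehyde (0.27, SE 0.29), and both overlapped between the groups. The lowest were Scarb1, a receptor of lipoproteins that also takes up carotenoids (-0.34, SE 0.17), and the fatty acid transporter Cd36 (-0.14, SE 0.38).

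Of 10 tested enzymes of retinol and retinaldehyde metabolism, 5 lay higher and 5 lower in GDNF. Sdr16c5, a retinol dehydrogenase, had 73.0 and 90.4 in GDNF against 118.2 and 103.1 in control samples (log2 fold change -0.44, SE 0.18, limma adjusted p = 0.999). Aldh1a3, the other retinaldehyde dehydrogenase of the family, had 42.3 and 37.2 in GDNF against 52.0 and 53.4 in control samples (-0.40, SE 0.21). For both genes the 2 GDNF samples were below the 2 control samples. Of the retinaldehyde dehydrogenases, then, Aldh1a2 and Aldh1a3 had lower means and Aldh1a1 a higher mean in GDNF. Rdh10, the retinol dehydrogenase of the mouse embryo, had 129.4 and 119.6 in GDNF against 98.1 and 146.6 in control samples (0.05, SE 0.21), and both GDNF values lay between the control values. The highest were Dhrs3, a reductase that turns retinaldehyde back to retinol and is itself induced by retinoic acid (0.17, SE 0.25), and Adh5 (0.07, SE 0.10).

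The 13 tested receptors and coregulators split into 6 that lay higher and 7 that lay lower in GDNF. Rarg, the third retinoic acid receptor, had 31.5 and 23.3 in GDNF against 36.3 and 26.7 in control samples (log2 fold change -0.19, SE 0.30). Rxrb, a partner of these receptors, had 61.9 and 81.7 in GDNF against 75.7 and 87.0 in control samples (-0.19, SE 0.21). These were the lowest, and the coactivators Ncoa3 (0.34, SE 0.28) and Med1 (0.15, SE 0.13) the highest. The partners Rxra (24.3 and 3.7 in GDNF, 21.4 and 9.0 in control samples) and Rxrg (21.9 and 15.3 in GDNF, 21.6 and 12.9 in control samples) lay below the filter in their brightest probe sets.

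Of 17 tested response genes, 8 lay higher and 9 lower in GDNF, with a median log2 fold change of -0.05. Hoxb2, a homeobox gene of the hindbrain induced by retinoic acid, was the lowest, at 38.4 and 33.6 in GDNF against 59.4 and 47.5 in control samples without overlap (-0.55, SE 0.23, limma adjusted p = 0.999). Hoxa5, of another cluster, was the highest, at 39.2 and 33.3 in GDNF against 37.7 and 20.7 in control samples with overlap (0.36, SE 0.33). Gbx2 had 0.30 (SE 0.41) and Rarres1, named for its response to retinoids, had -0.24 (SE 0.34). The meiotic genes Stra8 and Rec8 are not analysed here, since no probe set carried their symbol alone.

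**Figure D5:**
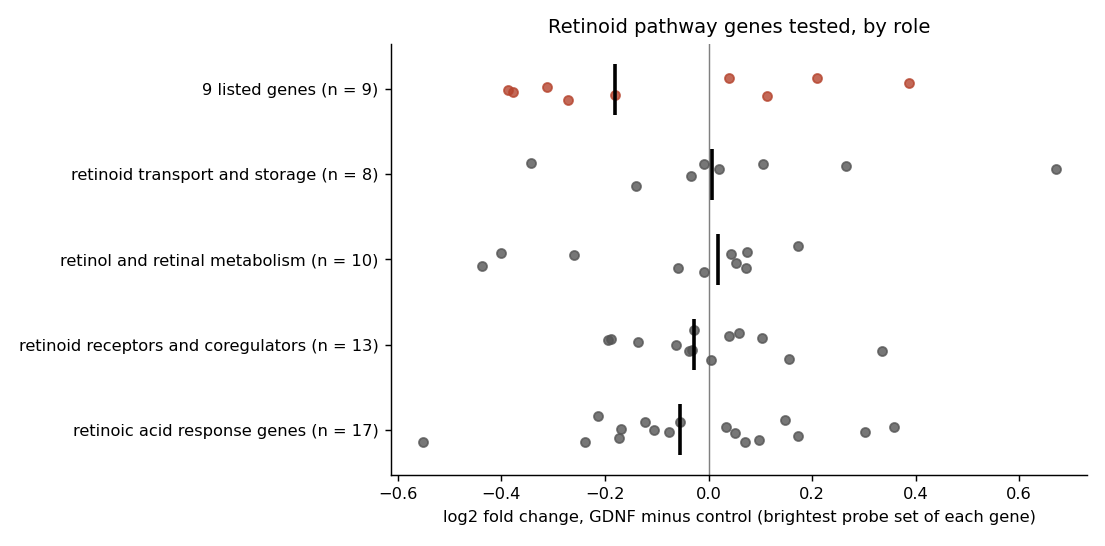
Log2 fold change, GDNF minus control (horizontal axis), of each tested gene on its brightest probe set, for the 9 listed genes and for 4 lists of other retinoid pathway genes; points are genes, scattered vertically for sight, and bars are medians. The medians are -0.18, 0.01, 0.02, -0.03 and -0.05 from top to bottom, and each row has genes on both sides of 0.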

How the data were processed

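The deposited table held MAS5 signals, linear array intensities that the authors computed with MAS5 per the submitters' processing notes, with 31099 probe sets on 4 arrays. MAS5 subtracts a mismatch estimate and scales each array to a common trimmed mean, so low signals are noisy and a change in total RNA cannot be seen. Affymetrix control probe sets (57) were left out. Symbols came from GEO's platform annotation: 20826 probe sets had 1 symbol, 436 several and 9780 none. Of the 20826, 20758 were found by Entrez identifier in RefSeq's GRCr8 table and 0 symbols changed.

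Signals were converted to log2(signal + 1), which understates the change of dim genes. The 18625 probe sets with a mean at or above the 40th percentile were compared, GDNF minus control, with limma 3.58.1 in R 4.3.3 (lmFit, eBayes with a trend, Benjamini-Hochberg adjustment over all of them, two-sided, threshold 0.05). SE and 95% intervals are limma's moderated ones. The fit was tested on data simulated from limma's own variance model, with changes far larger than those of the members. That test does not show whether changes of the members' size would be found. The members and gene lists were chosen with earlier results of these data known. Named genes were the members, up to 2 highest and 2 lowest of each list, and Rarg, Rxra, Rxrb, Rxrg, Rdh10, Dhrs3, Aldh1a3, Cyp26a1, Stra8 and Rec8. 1 further gene of that rule is not reported here. Marker genes beside Aldh1a2 and Rbp4 were chosen after their values were seen. Lists use each gene's probe set with the highest mean. Alternatives were another pseudocount, filter, scaling or variance model, a replicate block, and each sample left out.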

Additional observations from a re-analysis of the deposited data

How the results depend on the processing

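No member and no other retinoid gene passed under any of the 11 alternatives, and the lowest adjusted p of a member over all of them was 0.480 in limma (Crabp2 without GDNF replicate 2). Leaving out a sample leaves 1 sample in its group, which is then assumed to vary like the other group, so those 4 fits say little about stability. Over all probe sets, 0 passed with each sample left out in turn (0 to 0) and in the other alternatives except the replicate block, where 8 passed, none of them a retinoid gene. The replicate numbers are not said to mark a shared litter or day. Deviations of GDNF and control samples of the same number correlated at 0.32. With each sample left out in turn, the median over the 11 members ran from -0.24 to 0.0018, that of the transport genes from -0.12 to 0.12, of the metabolism genes from -0.08 to 0.05, of the receptors from -0.07 to 0.02 and of the response genes from -0.07 to -0.01. Of 115 member values recomputed, 6 changed sign, all with 1 sample left out. Many of the 115 could not change sign, as a filter, the eBayes trend or the block does not alter a log2 fold change. Crabp1 turned without control replicate 2 (0.027, range -0.57 to 0.027 over the samples left out) and Rara without GDNF replicate 2 (0.12, range -0.48 to 0.12). Rarb turned without control replicate 2 (-0.15) and without GDNF replicate 2 (-0.17, range -0.17 to 0.25). The Stra6 probe set 1385475_a_at turned without control replicate 1 (-0.15, range -0.15 to 0.37) and 1376962_at without GDNF replicate 2 (0.012, range -0.31 to 0.012). No member turned with a pseudocount of 16, after quantile normalization or after centring on array medians. The remaining alternatives were no filter, a 60th percentile filter (which drops the dim members), eBayes with no trend, and the block. In these each log2 fold change is that of the main fit, so they say nothing about its sign. Over all alternatives that kept every sample, Aldh1a1 ran from 0.20 to 0.23, Crabp2 from 0.34 to 0.40, Aldh1a2 from -0.38 to -0.35 and Rbp4 from -0.39 to -0.35. Without a filter the median of the response genes was 0.03 and that of the receptors 0.01, as more dim genes entered. With signals near 21 to 38, Rarb and Crabp1 lie close to the filter, which limits their precision.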
